A study of Oryza sativa with 12 samples.

Results

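The response of osnox2 rice leaves to drought was taken from 6 of the 12 arrays of the study: the 3 labelled as osnox2 under drought and the 3 labelled as osnox2 under normal growth. The arrays were chosen by their titles and not by any measured value. The line osnox2 is a T-DNA insertion mutant, and the study's title names the plasma membrane NADPH oxidase OsRbohA. Both osnox2 groups carry the same insertion, so the comparison holds the genotype fixed and changes the water supply. Plants were 2.5 months old, and RNA came from the youngest fully expanded leaves. Control leaves were taken at day 0 of the treatment, at a soil moisture of 47.3%, and droughted leaves at day 15, at 8.5%. Water supply and day of harvest therefore cannot be told apart. An osnox2 plant and a wild-type (WT) plant shared each pot during the treatment. The WT groups, 3 control and 3 drought arrays under the same conditions, enter below for the estimate of spread and for 1 comparison. Arrays are labelled as biological replicates, without saying whether each came from 1 plant or from several.

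NADPH oxidases of the plasma membrane make superoxide outside the cell, which is turned into hydrogen peroxide and acts as a signal in stress and development. A drying leaf accumulates the hormone abscisic acid (ABA), which closes stomata and switches on genes for protective proteins such as dehydrins and other LEA proteins. Chaperones of the heat shock families hold or refold damaged proteins, while superoxide dismutases and peroxidases remove reactive oxygen.

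Values are the deposited log2 signals of the Affymetrix rice array, 1 per probe set. A change is the drought mean minus the control mean on this scale, given with its standard error (SE), so a change of 1 is a doubling of the signal. Each change was fitted with limma, and a probe set was called when its adjusted p was under 0.05. The adjustment is that of Benjamini and Hochberg over the 32012 probe sets tested. "Rose" and "fell" are used only of such calls. Per-array values are given in the order of replicates 1, 2 and 3. Precision is limited by the small number of arrays, and small differences between dim signals can give large log2 changes. In whole tissue a change in RNA per cell cannot be told apart from a change in the number of cells of a type.

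The osnox2 control group was not uniform. Replicates 1 and 2 scored -141.78 to -133.42 together with WT control replicate 1 on principal component 1, against 34.7 to 66.36 for the other 9 arrays, and that component took 35.8% of the variance. LHY, a clock gene of the morning, read 13.51 and 13.57 on osnox2 control replicates 1 and 2, but 8.26 on replicate 3 and 8.67 to 8.99 on the drought arrays. PCL1, an evening clock gene, read 6.16 and 5.59 on replicates 1 and 2, 14.71 on replicate 3 and 14.33 to 14.62 under drought. Replicate 3 was thus the 1 control array whose values for both clock genes were near those of the droughted leaves. For this reason each change is given against all 3 control arrays (fit to 12 arrays) and against replicate 3 alone (fit to the 9 other arrays). The latter leaves 1 osnox2 control array and takes its spread from the other groups. The part of harvest time or of the clock in any difference was not tested. The tissue label was checked on 7 measured leaf genes. The light harvesting gene CAB2R read 15.0 to 15.69 and the small Rubisco subunit gene OsrbcS 14.22 to 14.7 on the 6 arrays. Of 8 annotated seed storage genes 3 were measured, with a median of 9.68 to 10.59 on each array. That is above the median of all probe sets tested, 8.11 to 8.33, and below that of the 7 leaf genes, 14.19 to 15.01. Neither of the 2 annotated pollen or anther genes passed the filter on low signals.

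Against all 3 control arrays, 93 probe sets rose and 77 fell, which is 0.291% and 0.241% of those tested. Against replicate 3 alone, 342 rose and 120 fell, or 1.07% and 0.375%. Unadjusted p-values were under 0.05 for 5765 and 4710 probe sets. Both comparisons called 61 probe sets, 38 higher and 23 lower, and none in opposite directions. These are 35.9% of the first set of calls and 13.2% of the second. The comparisons share the drought arrays and replicate 3, so this overlap is no independent evidence. The median change of all probe sets was 0.08 in the first and 0.01 in the second. The shares called over all probe sets are the background for every count of list members called below. For all 170 calls of the first comparison the drought arrays lay wholly above or wholly below the controls. That was also so for many probe sets that were not called, since 14.5% of all tested lay above and 8.32% below.

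The place of control replicates 1 and 2 differed among the calls against replicate 3. Over all probe sets tested, the drought arrays lay above all 3 controls in 14.5% and below them in 8.32%. They lay between replicate 3 and control replicates 1 and 2, in either direction, in 16.2%. Every drought array was above replicate 3 in 10636 probe sets, and in 4645 of these above all 3 controls. The calls below were chosen by their distance from replicate 3. Shares over all probe sets are therefore no like background for them, and no excess is read from the counts. Of the 342 rises, 174 had every drought array above all 3 controls. In 84 others control replicates 1 and 2 both lay above every drought array, so that the signal rose from replicate 3 but not from the others, and the remaining 84 overlapped. Of the 120 falls, 47 had every drought array below all 3 controls, 44 had replicates 1 and 2 below every drought array, and 29 overlapped. On replicate 3 itself, 86 of the 342 probe sets that rose were under that array's median, where signals are dim.

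**Figure D1:**
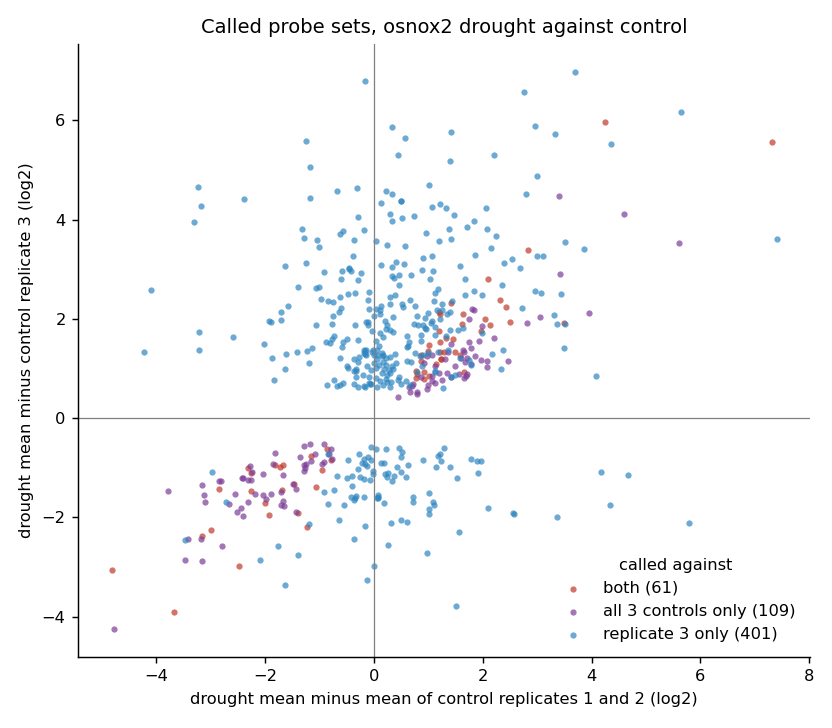
Each point is a called probe set. The x axis is the drought mean minus the mean of control replicates 1 and 2, the y axis the drought mean minus control replicate 3, both in log2. Red points (61) were called in both comparisons, purple (109) only against all 3 controls and blue (401) only against replicate 3. Red points lie where both differences have the same sign, while many blue points lie near or beyond the vertical zero line.

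Single arrays moved these counts. For the comparison with replicate 3 alone, not every array left out is listed here. Without osnox2 control replicates 1 and 2 in turn, 7 and 8 probe sets were called against the remaining controls, and without replicate 3 there were 5505. Leaving out drought replicates 1, 2 and 3 gave 9, 10 and 11. The WT arrays act here through the shared estimate of spread. Dropping WT control replicates 1, 2 and 3 gave 796, 102 and 67 calls, and dropping WT drought replicates 1, 2 and 3 gave 120, 56 and 81. For the comparison with replicate 3 alone, 245 and 122 calls were made after leaving out osnox2 drought replicates 1 and 2. Dropping WT control replicates 2 and 3 gave 241 and 242, dropping WT drought replicates 1 and 2 gave 734 and 211, and keeping WT control replicate 1 gave 12.

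Copper enzymes of superoxide removal rose while a copper transporter fell. SodCc2 codes for a cytosolic copper/zinc superoxide dismutase and lies at 28303368 to 28305482 on chromosome 7. It read 10.84, 10.51 and 11.24 on the control arrays and 13.19, 13.07 and 13.27 on the drought arrays. The drought arrays lay close together and far above every control. Its rise was 2.32, SE 0.27 (limma, adjusted p = 0.0136), a 4.98-fold higher signal, and against replicate 3 alone it was 1.94, SE 0.28 (adjusted p = 0.0215). sodCp, for the chloroplast enzyme, read 13.34, 12.85 and 13.06 in control leaves and 13.88, 13.83 and 13.89 under drought. Its groups did not overlap either, but the step was smaller, with rises of 0.79, SE 0.12 (adjusted p = 0.0277), and 0.80, SE 0.10 (adjusted p = 0.0111). The other cytosolic copper/zinc enzyme gene, SodCc1, did not share this pattern: it read 13.39, 13.14 and 12.43 in controls and 13.09, 12.97 and 12.92 under drought.

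COPT1 codes for a copper transporter and lies at 33128929 to 33129782 on chromosome 1. It was among the brightest signals of control leaves, at 14.29, 14.56 and 13.64, and read 10.79, 11.86 and 11.13 in droughted ones. Every drought array was below every control. The change was -2.90, SE 0.32 (limma, adjusted p = 0.00974), a 7.47-fold lower signal, and -2.38, SE 0.38, against replicate 3 (adjusted p = 0.0292). COPT2, of the same family, was lower on all drought arrays too, at 5.02, 4.94 and 1.93 against 5.34, 7.87 and 7.54, but its change of -2.95, SE 0.96, did not pass (adjusted p = 0.175). Of the 5 measured copper transport genes 1 fell and none rose in either comparison.

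Of 23 measured genes for the removal of reactive oxygen, 2 rose against all 3 controls and 3 against replicate 3, none fell, and the list medians were 0.02 and 0.04. The third was PRXIIE-2, a peroxiredoxin gene, at 11.76, 11.63 and 11.55 in controls and 12.41, 12.56 and 12.47 under drought. All its drought values were higher, with a rise of 0.93, SE 0.14, against replicate 3 (limma, adjusted p = 0.0247), where against all controls the value was 0.83, SE 0.52 (adjusted p = 0.408). The SE against all controls takes in the WT arrays, where PRXIIE-2 read 9.87, 12.26 and 12.41 in controls. APX2, a cytosolic ascorbate peroxidase gene, was counted in the list by its brightest probe set, at 14.49 to 15.01 in controls and 14.57 to 14.76 under drought, which was not called. A dimmer probe set for it, named here after its values were seen, read 10.34, 10.82 and 9.52 and then 11.55, 11.32 and 11.29, and rose by 1.87, SE 0.19, from replicate 3 (adjusted p = 0.00607). The probe sets of this gene thus disagree. APX7, a chloroplast ascorbate peroxidase gene, read 11.22 to 11.6 under drought against 8.9 to 10.36, without passing (adjusted p = 0.121). GRXC15, a glutaredoxin gene, read 10.93, 10.83 and 9.84 in controls and 7.31, 7.38 and 7.49 under drought. It fell by 2.45, SE 0.34, against replicate 3 (adjusted p = 0.0172). Its value against all controls was -3.14, SE 0.76 (adjusted p = 0.1). RBOHB, the 1 NADPH oxidase gene found by symbol, read 9.55, 9.32 and 12.31 in controls and 12.11, 12.16 and 12.16 under drought. Droughted leaves were level with replicate 3 and above the other controls, and neither change passed (adjusted p = 0.319 and 0.648). No gene carried the name of the disrupted oxidase in the annotation used here.

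**Figure D2:**
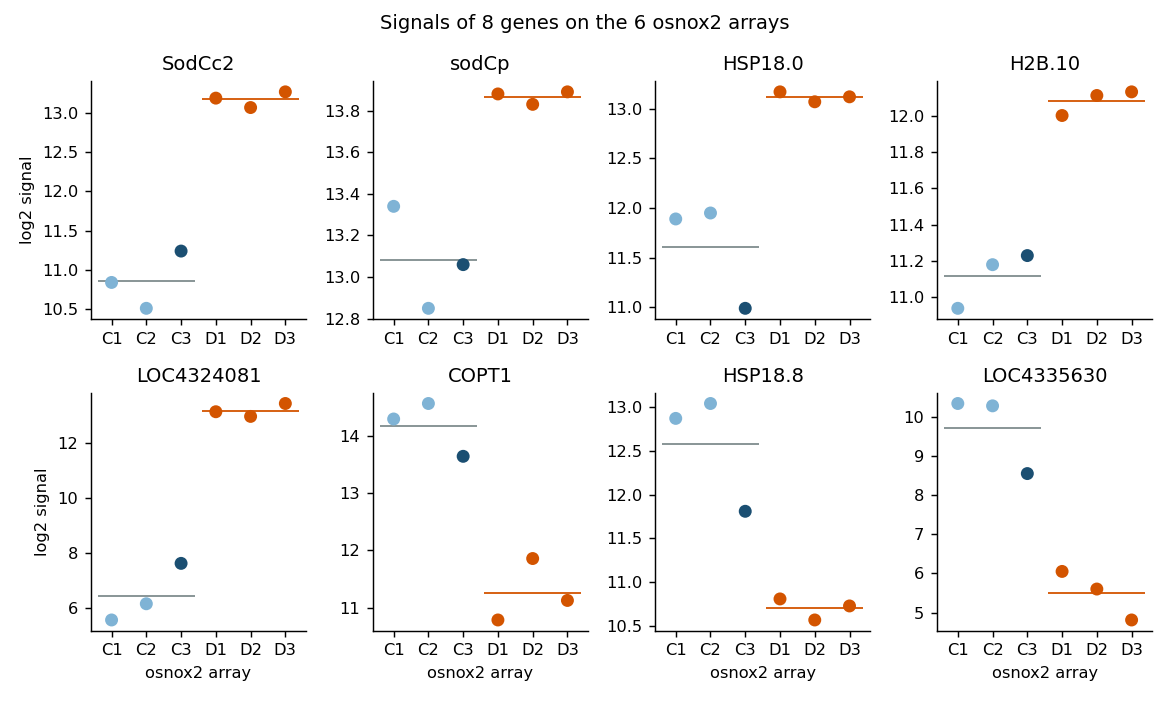
Log2 signals of 8 genes on the 6 osnox2 arrays, 1 point per array. C1 and C2 (light blue) and C3 (dark blue) are control replicates 1 to 3, D1 to D3 (orange) the drought replicates, and horizontal lines are group means. In each panel the drought arrays lie wholly above or wholly below the controls, and the y axes do not start at 0.

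The heat shock genes, which code for chaperones and for the factors that control them, are described by 2 patterns of the control arrays. These do not cover every member called against replicate 3. HSP17.4, at 9.12, 9.44 and 7.21 in controls and 9.58, 9.4 and 9.2 under drought, overlapped control replicates 1 and 2, as did HSP17.9B and HSFA2C. Of 16 measured genes for small heat shock proteins, 2 rose and 1 fell against all 3 controls, and 7 rose and 1 fell against replicate 3. The list medians were 0.83 and 1.37. Over all probe sets tested, 0.291% rose and 0.241% fell against all 3 controls, and the shares against replicate 3 stand with the call counts above. Of 31 genes for larger heat shock proteins and heat stress factors none was called against all controls, and 8 rose against replicate 3, with medians of 0.22 and 0.60. In the first pattern droughted leaves were above every control, as in 7 of the 16 and 6 of the 31 genes, against 14.5% of all probe sets tested. HSP18.0 read 11.89, 11.95 and 10.99 in controls and 13.17, 13.07 and 13.12 under drought. Its drought values lay very close together and cleared the highest control. The rise was 1.51, SE 0.24 (limma, adjusted p = 0.0311), and 2.13, SE 0.11, against replicate 3 (adjusted p = 0.00114). hsp17.9 read 10.74, 10.53 and 10.34 and then 11.73, 12.2 and 11.97, again without overlap. Its rises were 1.43, SE 0.14 (adjusted p = 0.00432), and 1.62, SE 0.16 (adjusted p = 0.00607).

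Several genes of this first pattern were called against replicate 3 only. HSP18.1 read 8.33 to 8.42 under drought and 7.97, 8.16 and 6.06 in controls, a rise of 2.31, SE 0.22, from replicate 3 (limma, adjusted p = 0.00536). CLPB1, for a disaggregating chaperone, read 7.04, 7.53 and 7.3 against 5.89, 6.19 and 5.11 and rose by 2.18, SE 0.36 (adjusted p = 0.0297). The heat stress factor gene HSFB2B rose by 3.82, SE 0.63, to 8.56, 8.72 and 8.94 from 4.92, with 7.37 and 7.34 on the other controls. HSFA2E, for a factor of class A, read 11.71 to 11.81 against 10.99 to 11.35 and rose by 0.77, SE 0.11. For each of these the drought arrays were above all controls. HSP16.9A and HSP16.9B were also higher on every drought array, with values against all controls of 1.62, SE 0.34, and 1.04, SE 0.23, that did not pass (adjusted p = 0.0739 and 0.0795).

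In the second pattern droughted leaves lay between replicate 3 and the other controls. Over the lists this was so for 2 of the 16 small and 7 of the 31 larger members, against 16.2% of all probe sets tested. HSP18.6 read 11.46, 11.26 and 7.41 in controls and 10.98, 11.05 and 10.98 under drought. It rose by 3.59, SE 0.28, from replicate 3 (limma, adjusted p = 0.00422), yet all drought arrays were below control replicates 1 and 2. HSP24.1 behaved likewise, at 13.14, 13.14 and 9.27 and then 12.57, 12.09 and 11.99, a rise of 2.95, SE 0.24, from replicate 3 (adjusted p = 0.00422). The factor gene HSFB2A read 12.04, 12.07 and 6.92 against 11.25, 10.88 and 10.06, and a further probe set for it gave 10.35, 10.76 and 5.62 against 9.54, 9.31 and 8.95. Both rose from replicate 3, by 3.81, SE 0.55, and 3.64, SE 0.50, while droughted leaves were below the other controls. HSFB2C rose by 2.54, SE 0.26, and, at 10.22, 10.22 and 7.59 against 10.11, 10.25 and 10.04, it was level with replicates 1 and 2. A further probe set for HSFB2C, at 11.19, 11.19 and 6.47 against 9.13, 9.57 and 9.94, rose by 3.07, SE 0.42, and lay below replicates 1 and 2. DJC27, a DnaJ gene, read 10.62 to 10.76 under drought and 11.76, 11.81 and 8.84 in controls, and HSP81-1, of the HSP90 family, 14.16 to 14.21 against 14.46, 14.28 and 13.54. Both rose from replicate 3, by 1.87, SE 0.18, and 0.65, SE 0.10. Against all 3 controls none of these 6 genes passed. HSP18.8 was the 1 called member of the small heat shock list that fell, at 12.87, 13.04 and 11.81 in controls and 10.81, 10.57 and 10.73 under drought. Its changes in the comparisons were -1.87, SE 0.34 (adjusted p = 0.0462), and -1.10, SE 0.19 (adjusted p = 0.0348).

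**Figure D3:**
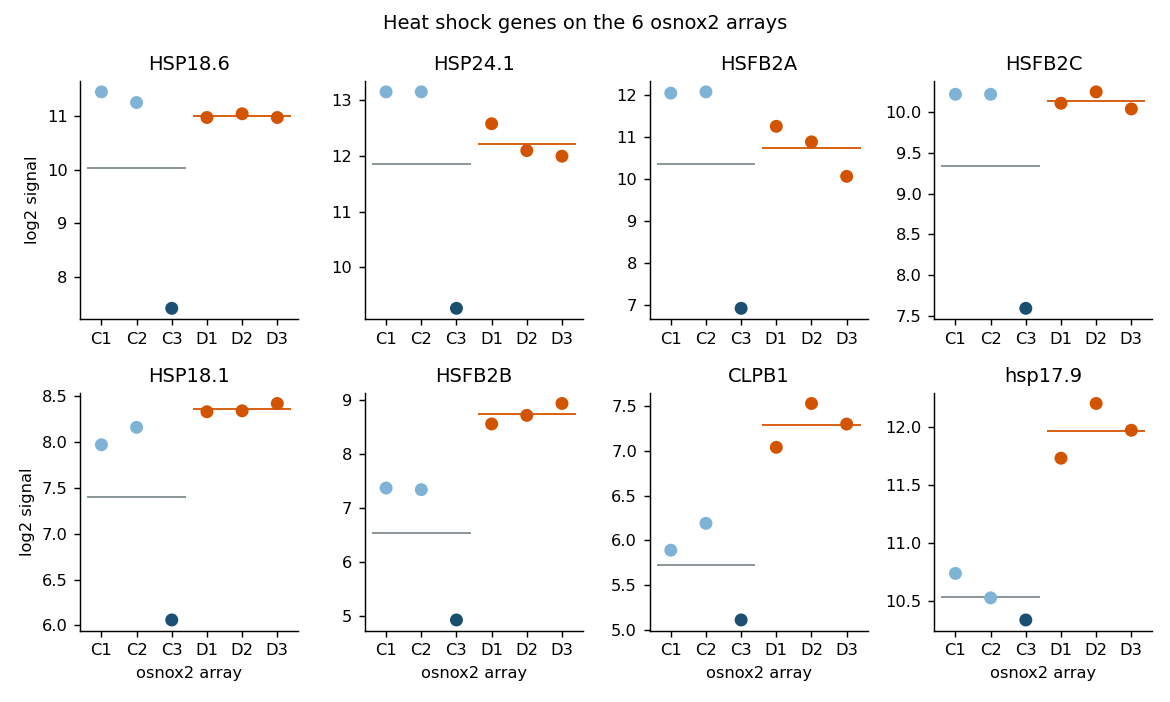
Log2 signals of 8 heat shock genes on the 6 osnox2 arrays, with colours and lines as in the plot of 8 genes. HSP18.6, HSP24.1 and HSFB2A show control replicates 1 and 2 above the drought arrays and replicate 3 far below them, while HSP18.1, HSFB2B, CLPB1 and hsp17.9 show the drought arrays above all 3 controls. The y axes do not start at 0.

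LEA and dehydrin genes had the largest list medians, 2.89 and 3.38 over 6 measured genes, but none of the 6 passed in either comparison. Their drought replicates differed widely. LEA19 read 2.15, 9.07 and 6.54 under drought and 0.08, 1.64 and 0.36 in controls (limma, adjusted p = 0.141). RAB16B, a dehydrin gene, read 0.29, 8.25 and 7.01 under drought and 2.64, 0.87 and 0.81 in controls, so drought replicate 1 was lower than any control. RAB21, of the same family, read 5.01, 7.89 and 6.9 against 4.7, 4.57 and 0.26. Drought replicate 1 was the lowest of the drought arrays for all 3 genes. Among the osnox2 arrays these genes were over the array median only under drought. The filter on low signals, which 6 of 8 annotated genes passed, kept them through arrays where they were high. The large list medians are therefore no measure of the response of the family. Dhn1, at 12.1, 12.11 and 11.45 against 10.62, 11.15 and 10.34, was bright on every array and higher on each drought array, with a value of 1.18, SE 0.49 (adjusted p = 0.25). RAB16C read 9.32, 9.39 and 8.67 against 7.45, 6.08 and 6.75, a value of 2.38, SE 0.48, against replicate 3 that did not pass (adjusted p = 0.0573).

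Of 23 measured genes for ABA synthesis, breakdown and signalling none was called against all controls, and 2 rose against replicate 3. The medians were 0.76 and 0.28, and in 9 genes every drought array was above all controls, as it was in 14.5% of all probe sets tested. BZIP23 codes for a transcription factor of the ABA response. It read 11.19, 11.32 and 9.1 in controls and 11.33, 11.83 and 11.48 under drought, a rise of 2.45, SE 0.45, from replicate 3 (limma, adjusted p = 0.043). The step from control replicates 1 and 2 was small beside that from replicate 3. OsPP2C08, for a protein phosphatase of the PP2C family, read 8.52, 8.79 and 9.53 and then 10.81, 10.8 and 10.9. It was higher on all drought arrays and rose by 1.30, SE 0.25, from replicate 3 (adjusted p = 0.0492), while its larger value against all controls, 1.89, SE 0.69, did not pass (adjusted p = 0.209). PP2C30, of that family, read 11.4, 12.07 and 12.39 against 9.6, 10.22 and 10.63, a value of 1.80, SE 0.39, that did not pass (adjusted p = 0.0809). The kinase gene SAPK9 read 7.14, 7.2 and 13.33 in controls and 12.7, 12.78 and 12.91 under drought, which placed droughted leaves under replicate 3 and far above the other controls.

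Jasmonate is a hormone of wounding and defence, and JAZ proteins repress its targets. Of 30 measured genes for jasmonate synthesis and JAZ proteins 1 rose, against replicate 3, and the medians were 0.52 and 0.33. The gene that rose was JAZ8 (LOC4347164), at 20653311 to 20655246 on chromosome 9. It read 7.91, 7.13 and 7.37 in controls and 10.52, 10.69 and 10.7 under drought. The 3 controls lay within a unit of each other and every drought value stood clear of them. The rise was 3.27, SE 0.45, from replicate 3 (limma, adjusted p = 0.0173), and the value against all controls was 3.16, SE 0.72 (adjusted p = 0.0862). The SE against all controls takes in the WT arrays, where JAZ8 read 6.84, 10.17 and 9.76 in controls. JAZ12 (LOC4348533) read 8.01, 8.11 and 9.96 and then 12.81, 11.91 and 11.41, with a value of 3.35, SE 0.63, just short of the threshold (adjusted p = 0.051). JAZ7 (LOC4343899) read 12.77, 12.58 and 13.28 and then 13.84, 13.79 and 13.93, also without overlap (adjusted p = 0.0533).

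Among 18 measured defence genes 2 rose against all 3 controls, and 1 fell against replicate 3. JAMYB, for a MYB factor that responds to jasmonate, read 7.16, 6.78 and 7.54 in controls and 9.0, 9.64 and 8.85 under drought, a rise of 2.01, SE 0.30 (limma, adjusted p = 0.0237). The control and drought arrays were separated by more than a unit. NH3, a homologue of the salicylate receptor gene NPR1, rose on 3 probe sets by 1.71, 1.68 and 1.34 (adjusted p = 0.0358, 0.0376 and 0.0404). On the first of these it read 7.46, 8.06 and 8.55 and then 10.05, 9.83 and 9.31. Neither gene passed against replicate 3 (adjusted p = 0.0936 for JAMYB and 0.0543 to 0.0898 for the probe sets of NH3). A chitinase gene outside the list, LOC4348631, fell against all 3 controls, from 11.92, 11.81 and 11.85 to 10.27, 10.57 and 10.44, a change of -1.43, SE 0.25 (adjusted p = 0.0395). A second chitinase gene, Cht2, read 8.35, 8.32 and 12.85 in controls and 10.7, 10.64 and 11.4 under drought. It fell by 1.94, SE 0.34, from replicate 3 (adjusted p = 0.036), while droughted leaves stood above control replicates 1 and 2. WRKY62, a repressor in defence, was higher on all drought arrays, at 11.14, 11.64 and 11.43 against 8.65, 7.91 and 10.42, and did not pass (adjusted p = 0.0823).

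Aquaporins are water channels of the plasma and vacuole membranes. Of 21 measured aquaporin genes none was called against all controls, and 2 rose against replicate 3. The list median turned from -0.21 to 0.54, and in 9 genes the drought arrays lay between replicate 3 and the other controls, as they did in 16.2% of all probe sets tested. PIP2-1, a plasma membrane water channel gene, read 14.1, 14.18 and 10.26 in controls and 11.98, 12.55 and 12.12 under drought. Droughted leaves were thus below control replicates 1 and 2 and above replicate 3, from which it rose by 1.96, SE 0.28 (limma, adjusted p = 0.0207). TIP1-1, for a channel of the vacuole membrane, read 14.55, 14.59 and 12.25 and then 13.54, 13.87 and 13.9, a rise of 1.52, SE 0.20, from replicate 3 (adjusted p = 0.0145). With a term for the 3 arrays that stood apart, PIP2-1 had a value of 1.42 and TIP1-1 of 0.91, where the plain 12-array values were -0.62 and -0.03.

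Of 18 genes of nitrogen transport and assimilation 1 rose in each comparison, a different one each time. NRT2.3 codes for a high-affinity nitrate transporter and read 6.03, 5.83 and 6.85 in controls and 8.83, 9.05 and 8.39 under drought. Its groups were well apart, and it rose by 2.52, SE 0.36 (limma, adjusted p = 0.0227), with a value of 1.91, SE 0.41, against replicate 3 (adjusted p = 0.0687). NIA1, a nitrate reductase gene, read 12.29, 12.53 and 9.59 and then 11.54, 11.69 and 12.2. It rose by 2.22, SE 0.27, from replicate 3 (adjusted p = 0.0103), and droughted leaves were below control replicates 1 and 2. A dimmer probe set for it, at 5.79, 4.05 and 0.75 in controls, also rose from replicate 3, by 4.51, SE 0.78, or 0.64 with an offset of 64, and overlapped the other controls. AMT1, an ammonium transporter gene, read 9.89 to 10.31 under drought against 13.39, 13.41 and 9.19, and neither change passed (adjusted p = 0.402 and 0.16). Among 27 ion transport genes HAK3, for a potassium transporter, was the 1 that rose, by 2.39, SE 0.39, from replicate 3, or 0.94 with the offset. HAK3 read 7.01, 4.72 and 4.14 in controls and 6.55, 6.41 and 6.62 under drought, so control replicate 1 was above every drought array. Among 37 genes of sugar and starch the gene that rose was SWEET6A, for a sugar transporter. It read 9.58, 9.74 and 9.48 under drought and 8.56, 8.76 and 7.78 in controls, a rise of 1.82, SE 0.23, from replicate 3.

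No photosynthesis gene of the lists was called. The 13 genes of chlorophyll synthesis had medians of -0.65 and 0.14, and the 12 of photosystems, Rubisco and the Calvin cycle -0.25 and 0.04. CAO, which makes chlorophyll b, read 14.05, 14.16 and 10.3 in controls and 10.32, 10.38 and 10.45 under drought. PSAG, for a subunit of photosystem I, read 13.52, 13.51 and 9.98 and then 10.06, 10.06 and 10.31. For both, droughted leaves were level with replicate 3 and far below the other controls. Of the 7 clock genes none was called. Replicate 3 was set apart by its LHY and PCL1 values, so the likeness of clock genes between it and the drought arrays is a description and no result. PRR1 read 9.13, 9.29 and 12.67 against 11.92 to 12.36 under drought, and PRR73 read 14.47, 14.38 and 13.57 against 13.49 to 13.6. Differences between replicate 3 and the drought arrays were small for PRR37 (0.17), GI (0.10) and PRR95 (-0.07), and the value for LHY was 0.53.

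Histone H2B genes, which code for a core protein of chromatin, made up 5 of the 6 measured histone genes. Of the 6, 3 rose against all controls and 1 against replicate 3, with values over the list from 0.08 to 1.09 against all controls. Over all probe sets tested, 0.291% rose against all controls. H2B.10 read 10.94, 11.18 and 11.23 in controls and 12, 12.11 and 12.13 under drought. The spread within each group was small beside the step, which was 0.96, SE 0.13 (limma, adjusted p = 0.0184), and 0.85, SE 0.15, against replicate 3 (adjusted p = 0.0393). H2B.11 and H2B.7 rose by 0.68, SE 0.12, and 0.69, SE 0.13 (adjusted p = 0.0395 and 0.0451), and H2B.6 had a value of 0.41, SE 0.15 (adjusted p = 0.204). These genes are near-identical copies, so their probe sets may share signal. Of 37 measured cell division genes 1 rose, KRP6, for an inhibitor of cyclin-dependent kinases, by 3.43, SE 0.56, from replicate 3 (adjusted p = 0.0296). It read 6.11, 3.69 and 3.63 in controls and 7.69, 6.27 and 7.23 under drought, and with an offset of 64 on the signal the value was 1.40.

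Further named genes called in both comparisons were G6PGH2, MTR1 and CRYD. G6PGH2 codes for a dehydrogenase of the oxidative pentose phosphate pathway, which supplies NADPH. It read 11.17, 11.5 and 11.04 in controls and 12.19, 12.18 and 12.22 under drought, with rises of 0.96, SE 0.15, and 1.16, SE 0.12 (limma, adjusted p = 0.0303 and 0.00665). Its drought arrays were almost identical and above every control. MTR1 (LOC4344396) read 8.45, 8.78 and 7.73 and then 9.86, 9.63 and 9.98, with rises of 1.51, SE 0.26, and 2.10, SE 0.26. CRYD, a cryptochrome gene of the DASH type, fell from 10.02, 9.95 and 10.31 to 8.77, 8.86 and 9.13, with changes of -1.17, SE 0.22, and -1.39, SE 0.21 (adjusted p = 0.0496 and 0.0264).

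Named genes that fell against all 3 controls but not against replicate 3 were HCT3, SAT4 and DMC1, besides the chitinase gene. HCT3, for a hydroxycinnamoyl transferase, read 7.75, 7.74 and 7.11 and then 5.66, 4.93 and 6.11 (limma, adjusted p = 0.0387). SAT4 read 10.94, 11.23 and 10.07 and then 8.94, 8.46 and 9.06 (adjusted p = 0.0395). DMC1, for a recombinase known from meiosis, read 9.49, 9.19 and 9.8 and then 7.72, 7.65 and 8.32 (adjusted p = 0.0462). The groups did not overlap for any of them. CPK21, a calcium-dependent kinase gene, rose by 3.76, SE 0.64 (adjusted p = 0.039), from 1.06, 1.44 and 0.18 to 5.26, 4.01 and 4.68. All of these signals were dim, and with an offset of 64 the value was 0.45.

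Other named genes called against replicate 3 alone differed in where the remaining controls lay. ILL8, for a hydrolase of auxin conjugates, read 4.1, 0.56 and 6.12 in controls and 9.38, 9.64 and 10.16 under drought, and rose by 3.61, SE 0.59 (limma, adjusted p = 0.0297). Alpha-ETF, for an electron transfer flavoprotein, read 5.11, 3.84 and 1.87 and then 6.28, 6.44 and 5.17, and rose by 4.09, SE 0.64, or 0.93 with an offset of 64, since replicate 3 was dim. Both had all drought arrays above all controls. Hox22, for a homeodomain factor, rose by 3.13, SE 0.49, from replicate 3, but read 11.5 and 11.64 on the other controls and 9.93, 10.74 and 10.33 under drought. CHARK, a receptor-like kinase gene, rose by 3.27, SE 0.45, or 0.94 with the offset, and overlapped control replicate 2.

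The rest of the named falls from replicate 3 were of 1.19 or less in size. MST3, for a monosaccharide transporter, fell by 1.19, SE 0.23, and CYCP3-1, for a cyclin, by 1.12, SE 0.21, both overlapping control replicates 1 and 2. OsTLP3, FH5 and GME-1 fell by 0.87, 0.83 and 0.60, and on each the drought arrays were above control replicates 1 and 2. NRAMP4, for a metal transporter, fell by 0.73, SE 0.14 (limma, adjusted p = 0.0481), from 10.6 to 9.92, 9.87 and 9.83, which is below all controls. BZIP60, a bZIP factor gene, rose by 1.38, SE 0.24 (adjusted p = 0.0349), and overlapped the other controls.

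The largest called changes belonged to genes without a symbol in the annotation. LOC4324081, at 3007527 to 3009193 on chromosome 1, read 5.55, 6.14 and 7.61 in controls and 13.13, 12.96 and 13.43 under drought. It was above the array medians of 5.08 to 5.43 in control leaves and among the bright signals in all droughted ones, with rises of 6.74, SE 0.50 (limma, adjusted p = 0.00146), and 5.56, SE 0.48, against replicate 3 (adjusted p = 0.00475). LOC4335417 rose against all controls, from 7.23, 6.73 and 9.05 to 13.68, 12.47 and 11.58, by 4.91, SE 0.74 (adjusted p = 0.0254). LOC4348048 rose in both comparisons from dim signals, and its 4.83 was 0.93 with an offset of 64. LOC4335630 fell from 10.34, 10.28 and 8.55 to 6.05, 5.6 and 4.81 and LOC4344496 from 9.26, 9.63 and 9.66 to 5.39, 6.05 and 5.86. Both fell in both comparisons, the latter by 3.75, SE 0.49, and 3.90, SE 0.73. LOC4342076 fell against all controls by 3.09, SE 0.43 (adjusted p = 0.0226). Against replicate 3, LOC4327914, LOC4328929 and LOC4325831 rose from 0.32, 2.96 and 0.0, all far under the array median. Their values of 6.98, 6.80 and 6.57 depend on those dim signals and were 1.77, 3.73 and 1.34 with an offset of 64. LOC4324866 fell by 3.27.

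**Figure D4:**
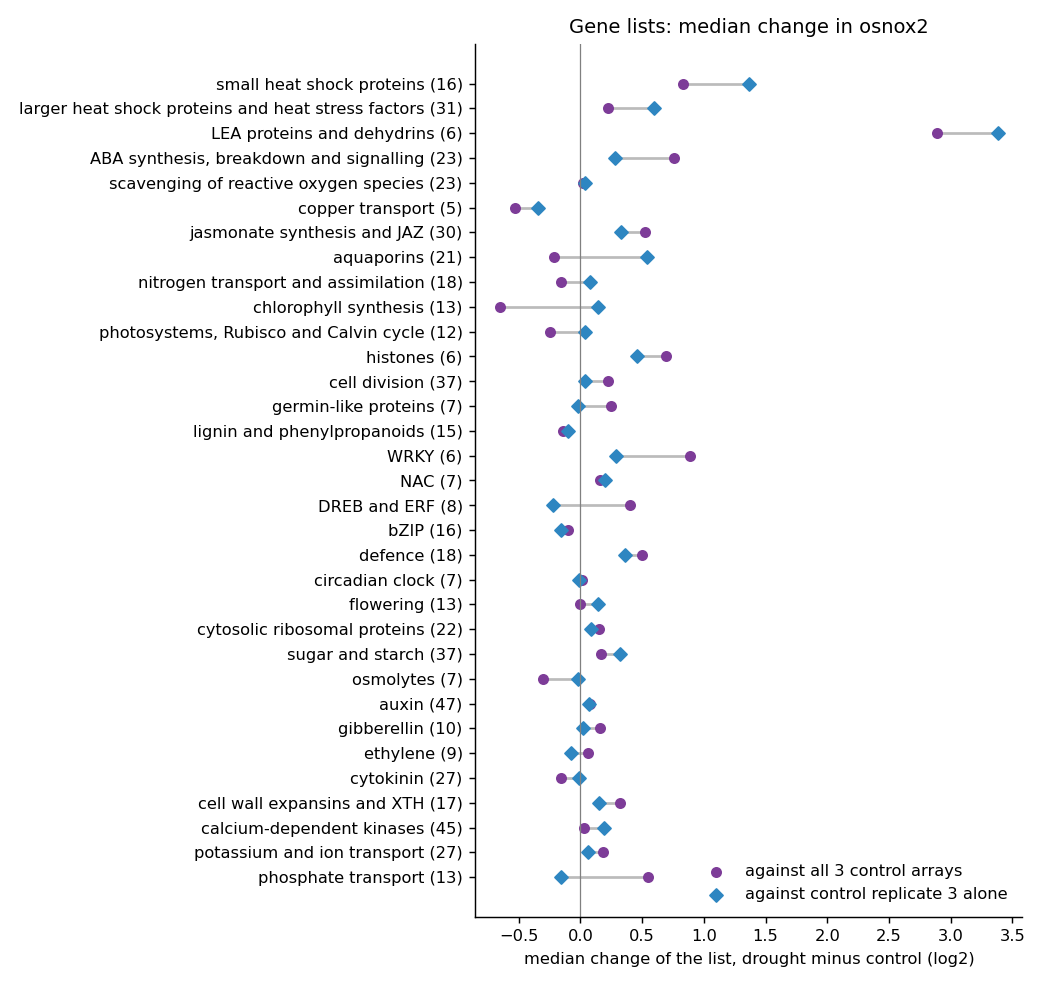
Median change of each gene list with at least 5 measured genes (number in brackets), drought minus control in log2. Purple circles are against all 3 control arrays and blue diamonds against replicate 3 alone. LEA genes have the largest medians (2.89 and 3.38), and some of these genes were dim in control leaves. Aquaporins (-0.21 and 0.54) and chlorophyll synthesis (-0.65 and 0.14) have medians on opposite sides of 0.

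The remaining lists held few calls. Of 45 calcium-dependent kinase genes 1 rose, CPK21. None of 22 cytosolic ribosomal protein genes was called, with medians of 0.15 and 0.09, nor any of 47 auxin, 27 cytokinin, 10 gibberellin, 9 ethylene, 7 NAC, 8 DREB and ERF, 6 WRKY or 17 cell wall genes. Among these lists the WRKY median of 0.89 against all controls was the highest, and it was 0.29 against replicate 3.

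Whether osnox2 changed differently from WT was tested as the difference between their drought changes. With all 12 arrays no probe set passed (0.0%), and 1075 had an unadjusted p under 0.05. With the 9 arrays 8 passed (0.025%), and 2341 had an unadjusted p under 0.05. In all 8 the change was more positive in osnox2, and it rests on osnox2 control replicate 3. The changes of both genotypes are given side by side, and a difference that does not pass is not shown to be absent. COPT1 changed by -2.38, SE 0.38, in osnox2 and by -2.35 in WT in the 9-array fit (difference -0.04, limma adjusted p = 0.995). SodCc2 changed by 1.94 and 1.76, HSP18.0 by 2.13 and 2.04 and HSFB2B by 3.82 and 3.84. With all 12 arrays the values of osnox2 and WT lay further apart, at 2.32 and 1.53 for SodCc2, 1.51 and 2.23 for HSP18.0 and 2.20 and 3.32 for HSFB2B, and no difference passed (adjusted p = 0.986).

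JAZ8 had the smallest p of the difference among genes with a symbol in the 9-array fit. On the WT arrays it read 6.84, 10.17 and 9.76 in controls and 9.61, 8.52 and 8.21 under drought, so WT control replicates 2 and 3 were well above the osnox2 controls. The WT change was -1.19 and the difference 4.46, which did not pass (limma, adjusted p = 0.0824, and 0.986 with all 12 arrays). CRSH2, for which no difference passed, had one of 3.40 in the 9-array fit, with a WT change of -1.79, and of -0.33 with all 12 arrays. It read 11.58, 11.28 and 6.07 in osnox2 controls and 8.09, 7.67 and 7.3 under drought, where droughted leaves lay between the controls. LOC4324081 read 8.84, 9.13 and 9.5 in WT controls and 12.17, 13.0 and 11.46 under drought, and its difference of 2.66 did not pass either (adjusted p = 0.285). DMC1 changed by -1.90 in osnox2 and 0.26 in WT (adjusted p = 0.321).

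**Figure D5:**
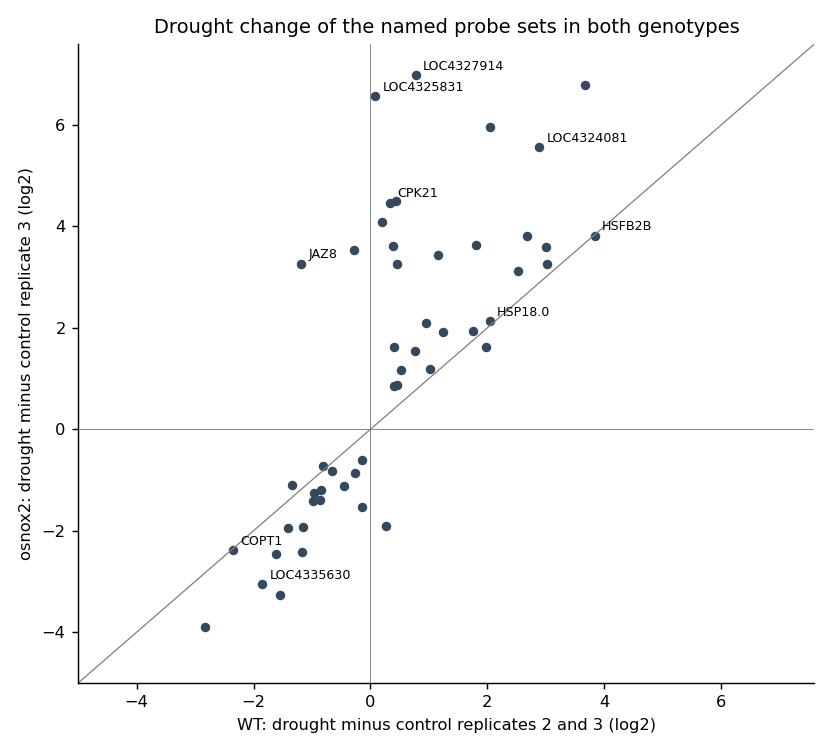
Drought change in WT (x axis) and in osnox2 (y axis) in the 9-array fit, in log2, for the probe sets named for their size of change. The diagonal marks equal changes. COPT1, HSP18.0 and HSFB2B lie near it, and JAZ8 and LOC4327914 lie above it. The points were chosen for their change in osnox2, so their distance from the diagonal is no test.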

How the data were processed

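Leaf RNA was hybridised to 12 arrays in 4 groups of 3. The authors deposited log2 signals of 57258 probe sets. The submitters' processing notes name MAS5, without a version. Array medians were 5.08 to 5.43. The 64 reporter probe sets were left out, and a probe set was tested (32012) where at least 3 of the 12 arrays had it over the array median. Of these 18636 matched 1 gene of the ASM3414082v1 annotation, whose positions are given, and names come from its symbols and synonyms. Models of the group means were fitted with limma 3.58.1 (lmFit, eBayes with an intensity trend) in R 4.3.3, to 12 arrays and to 9. They were also run on simulated data with independent noise on each array. Those data lacked the shift shared by the 3 arrays that stood apart, so they cannot show how the models deal with it. Tables and plots used Python 3.11.15.

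Named genes were, per comparison, the 12 largest called rises and falls with a symbol and no overlap of arrays, the 3 largest each way without one, up to 5 members of each list by p, the clock genes and RBOHB. For the difference between genotypes they were the 8 smallest p. Lists use 1 probe set per gene, the brightest, so a call on another probe set is not counted, and were filled by symbol, so they do not cover whole families. The comparisons, members and lists were chosen with earlier results of these data known. Residuals of equally numbered osnox2 arrays correlated at -0.012, 0.067 and 0.057, and no block was used. Alternatives changed the filter, offset, scaling, trend, arrays, block and a term for the 3 arrays that stood apart.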

Additional observations from a re-analysis of the deposited data

Results flagged for a closer look

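The difference between the drought changes of osnox2 and WT passed for 8 probe sets in the 9-array limma fit, with adjusted p of 0.0425 to 0.0495. It was more positive in osnox2 in each. The differences, in log2, were 8.4 for LOC4347962, 6.2 for LOC4327914, 7.03 for LOC4340980 and 5.01 for LOC4335428. For the 4 probe sets that match no gene they were 5.14, 7.48, 5.03 and 2.87. The WT changes also enter these differences. In the same order they were -4.14, 0.78, -1.16 and -1.99 for the genes and -3.48, -5.67, -0.45 and -0.50 for the other probe sets. All 8 rest on 1 osnox2 control array, and none passed with all 12 arrays. On that array LOC4335428 and the probe sets with differences of 7.48 and 5.03 read 3.38, 2.91 and 1.76, under the array median. LOC4347962, LOC4327914 and LOC4340980 read 0.0, 0.32 and 0.0 on it, far under the median, so the size of their osnox2 changes depends on dim signals. With an offset of 64 their osnox2 changes went from 4.27, 6.98 and 5.87 to 0.37, 1.77 and 0.93, and 1 of all probe sets tested passed.

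The array carries 64 reporter probe sets that the comparisons left out. On 2 of them every osnox2 array was brighter than every WT array. The first read at least 12.45 in osnox2 (up to 13.32) and 0.73 to 2.97 in WT. The second read at least 6.12 in osnox2 (up to 7.86) and 0.33 to 4.6 in WT. Drought minus control within osnox2 was 0.4 and 0.54 on them. What these probe sets detect is not annotated in the files.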

How the results depend on the processing

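Calls against all 3 controls (170) numbered 102 with no filter, 77 with no intensity trend, 5 with only osnox2 arrays, 93 with a replicate block and 596 with a term for the 3 arrays that stood apart. Single arrays left out gave 7 to 5505. Calls against replicate 3 (462) numbered 135 with no trend, 180 with only osnox2 arrays, 278 with a replicate block and 12 with WT control replicate 1 kept, and 122 to 734 with single arrays left out. The labels do not say that a replicate number marks a pot. Residuals of equally numbered osnox2 and WT arrays correlated at 0.342, -0.251 and 0.368 in controls and 0.123, -0.066 and 0.139 under drought. Control arrays of unequal number correlated as much, at 0.352 (osnox2 replicate 2, WT replicate 1) and 0.368 (osnox2 replicate 3, WT replicate 2). These values therefore cannot show whether equal numbers shared a pot, and the numbers were not taken as paired. For the genotype difference, 0 became 8 with 9 arrays and 0 to 46 with single arrays left out (46 without osnox2 control replicate 3). The 8 became 0 with no filter, the 75th percentile filter, offset 16, the replicate block, the term for the 3 arrays or WT control replicate 1 kept, 1 with offset 64, and 0 to 3 with single arrays left out. Median centring moved its median over all probe sets in the 9-array fit from 0.022 to -0.12. The cause of these changes was not tested.

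None of the values that changed sign was called in its own comparison. With the term for the 3 arrays the values were -2.52 and -3.19 for Cht2, -0.66 for OsTLP3, -0.81 for FH5, -0.54 for GME-1, 2.21 for a second probe set of HSFB2C, 1.73 for DJC27, -0.62 for SAPK9, -0.28 for RBOHB, 1.42 for PIP2-1, 0.91 for TIP1-1, 0.82 for TIP1-2, 0.78 for AMT1, 0.16 for PSAG, 0.91 for LHY, -0.21 for PCL1, -0.47 for PRR1, 0.15 for PRR37 and -0.04 for PRR95. Against replicate 3, CAO was -0.01 with that term and PRR73 0.03 after quantile normalization, where TIP1-1 was 0.14 against all controls. Single arrays left out gave -1.32 to 1.25 and -1.29 to 1.28 for HSFB2A, -0.36 to 1.66 and -0.39 to 1.46 for HSP18.6, -1.24 to 0.98 for Hox22, -0.09 to 0.46 for GME-1, -0.17 to 3.48 for LOC4328929, -0.92 to 1.01 for HSP24.1, -0.09 to 1.23 and -1.64 to 0.72 for HSFB2C, -0.19 to 0.27 for HSP81-1, -1.07 to 0.41 for DJC27, -0.27 to 0.21 for SodCc1, -1.92 to 0.04 for PIP2-1, -0.81 to 0.36 for TIP1-1, -0.60 to 0.87 for NIA1 and -0.02 to 0.06 for PRR95, and -0.03 to 0.02 for PRR73 against replicate 3. Of 74 list medians 12 moved by more than the spread between drought arrays when all probe sets of a gene were averaged.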

Other observations

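Gene lists not described above held no call in either osnox2 comparison. Their medians against all 3 controls and against replicate 3 were 0.55 and -0.16 for 13 phosphate transport genes, 0.25 and -0.02 for 7 germin-like protein genes, and -0.14 and -0.10 for 15 genes of lignin and phenylpropanoids. For 13 flowering genes they were 0.0 and 0.14, for 7 genes of osmolytes -0.30 and -0.02, and for 3 light harvesting genes -0.27 and 0.14. The list of 16 bZIP factor genes, which holds BZIP23 and BZIP60, had 2 rises against replicate 3 and medians of -0.10 and -0.16.

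Besides JAZ8 and CRSH2, the genes with a symbol and the smallest p for the difference between genotypes in the 9-array limma fit were 4CLL7 (2.05), CYP71Z6 (1.76), MAPK6 (1.66), NIA1 (1.97), YAB1 (2.35) and CYP701A8 (1.56), all more positive in osnox2. None passed, and each rests on 1 osnox2 control array. With all 12 arrays the differences were -0.15 for 4CLL7, -0.04 for CYP71Z6, 0.82 for MAPK6 and 0.72 for NIA1. They were 1.19 for YAB1 and 0.62 for CYP701A8, and none passed there either.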
